A study of Mus musculus with 25 samples.

Results

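Vascular and mesenchymal miRNAs were followed in small RNA libraries of mouse brain through 8 precursor hairpins. These are mmu-mir-126a, mmu-mir-126b, mmu-mir-143, mmu-mir-145a, mmu-mir-199a-1, mmu-mir-199a-2, mmu-mir-199b and mmu-mir-214, written without the species prefix from here on. They were taken by name from the count table, which holds 1193 precursors; all 8 passed the filter on low counts and stand among the 425 precursors tested. The mice were males of the inbred laboratory strain C57BL/6, the tissue was the brain hemisphere, and the animals were aged 2, 9, 15, 24 or 30 months, with 5 libraries at each age and 25 in all. No other treatment, allele or agent is named in the labels, and each library title carries its own animal number. A hemisphere holds all cell types of the brain together with its vessels and whatever meninges stayed attached, so in these bulk libraries fewer cells of a type and less RNA per cell cannot be told apart.

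A miRNA precursor is a hairpin from which Dicer cuts a duplex, and 1 or both arms are loaded into Argonaute, where the seed near the 5′ end pairs with target mRNAs. miR-126 is known as the endothelial miRNA; its gene lies inside Egfl7, itself an endothelial gene, and it supports vessel integrity in mouse and zebrafish. miR-143 and miR-145 are transcribed together and are known from smooth muscle cells and pericytes, the mural cells that wrap vessels, where they favour the contractile state. mir-199a-2 and mir-214 are made from the non-coding transcript Dnm3os, and the miR-199 family and miR-214 are known from mesenchymal cells and fibroblasts.

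The hairpins of the families with shared reads are printed because their sequences decide what can be counted separately. They are from RefSeq (GRCm38.p6), from which 6 of the 8 precursors were taken, and capitals mark the mature miRNAs listed there. mir-143 and mir-145a were left out of the sequence step beforehand.
mir-126a: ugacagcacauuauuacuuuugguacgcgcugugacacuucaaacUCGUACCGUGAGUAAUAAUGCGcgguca
mir-126b: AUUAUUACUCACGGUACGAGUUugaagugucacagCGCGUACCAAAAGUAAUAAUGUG
mir-199a-1: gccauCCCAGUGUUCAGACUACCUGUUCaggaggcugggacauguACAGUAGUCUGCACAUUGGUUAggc
mir-199a-2: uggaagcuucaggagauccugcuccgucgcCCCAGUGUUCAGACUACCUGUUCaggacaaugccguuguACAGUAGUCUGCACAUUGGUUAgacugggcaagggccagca
mir-199b: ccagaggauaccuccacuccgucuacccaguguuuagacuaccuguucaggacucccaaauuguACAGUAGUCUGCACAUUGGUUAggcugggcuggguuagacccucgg
The mir-126b hairpin, 58 bases long, is the reverse complement of positions 7 to 64 of the 73-base mir-126a hairpin. It lies on the opposite strand, at chr2:26591363-26591420 (minus) within chr2:26591357-26591429 (plus). The 3p sequence of miR-199 is identical in all 3 miR-199 hairpins. The 5p sequence is identical in mir-199a-1 and mir-199a-2, and the matching stretch of the mir-199b hairpin differs from it by 1 base, C10U, counted from 1 at the 5′ end of miR-199a-5p.

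The mature sequences below carry their seed, bases 2 to 8, in capitals and show which miRNAs share one.
miR-126a-3p: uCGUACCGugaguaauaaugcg
miR-126b-5p: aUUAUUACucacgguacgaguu
miR-126b-3p: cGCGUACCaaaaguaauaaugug
miR-199a-5p: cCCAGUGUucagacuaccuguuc
miR-199a-3p: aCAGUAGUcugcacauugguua
miR-199b-3p: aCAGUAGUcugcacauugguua
miR-214-5p: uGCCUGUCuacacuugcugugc
miR-214-3p: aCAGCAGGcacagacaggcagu
Only miR-199a-3p and miR-199b-3p have a seed in common among these 8. miR-126a-5p and miR-199b-5p had no entry in the reference used and are not printed. The 1-base difference of the mir-199b hairpin, C10U, lies outside bases 2 to 8 of miR-199a-5p. miR-126a-3p and miR-126b-5p are complementary over a stretch of 19 bases. By GENCODE M21 (GRCm38), mir-126a lies in Egfl7 on the same strand and overlaps 1 annotated exon. mir-199a-2 (chr1:162217814-162217923, plus) and mir-214 (chr1:162223368-162223477, plus) lie in exons of Dnm3os with 5444 bases between them, opposite an intron of the dynamin gene Dnm3. mir-199a-1 (chr9:21496495-21496564, minus) lies opposite an intron of Dnm2, and mir-199b (chr2:32318460-32318569, plus) opposite an intron of Dnm1.

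Depth was 3.78 to 9.52 M counted reads per library, M standing for mega-reads, and 5.61 M at the median. The neuronal mir-124 and mir-9 loci, which mark brain tissue, summed to at least 35762 CPM in every library. Levels are given as CPM, counts per mega-read of a library's total, adjusted by edgeR's TMM factors (0.952 to 1.04); capture differs between miRNA sequences, so CPM orders the precursors by reads and not by molecules. The column names of the table carry the sequencing lane, and the 5 libraries of lane 3, 1 at each age, entered the fit over all libraries and were left out in an alternative. mir-145a lay between 181 and 209 CPM in lane 3 against 200.2 to 308 CPM in the other lanes, and mir-126a averaged 6809 CPM in lane 3 against 6486 CPM in the others. Between ages, edgeR's quasi-likelihood test was used with Benjamini-Hochberg adjustment over all 425 precursors, and a change is called at an adjusted p under 0.05.

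The 8 precursors spanned a wide range of read levels. mir-143 was the tenth most abundant of the tested precursors with a mean of 23653 CPM over the 25 libraries. mir-126a followed at rank 32 with 6550 CPM and mir-126b at rank 42 with 5286 CPM. mir-145a stood at rank 177 with 227 CPM and the miR-199 loci at ranks 263 to 268 with 33.7 to 35.7 CPM each. mir-214 was near the lower end of what was tested, at rank 399 with 1.71 CPM and between 3 and 21 reads in a library. The most abundant members also varied least. Sampling noise is larger at low read numbers, and its part in this order was not tested. The coefficient of variation over all libraries was 4.14% for mir-126a, 5.43% for mir-126b and 5.95% for mir-143, against 11.6% for mir-145a, 15.7% to 18.8% for the miR-199 loci and 38.2% for mir-214.

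**Figure D1:**
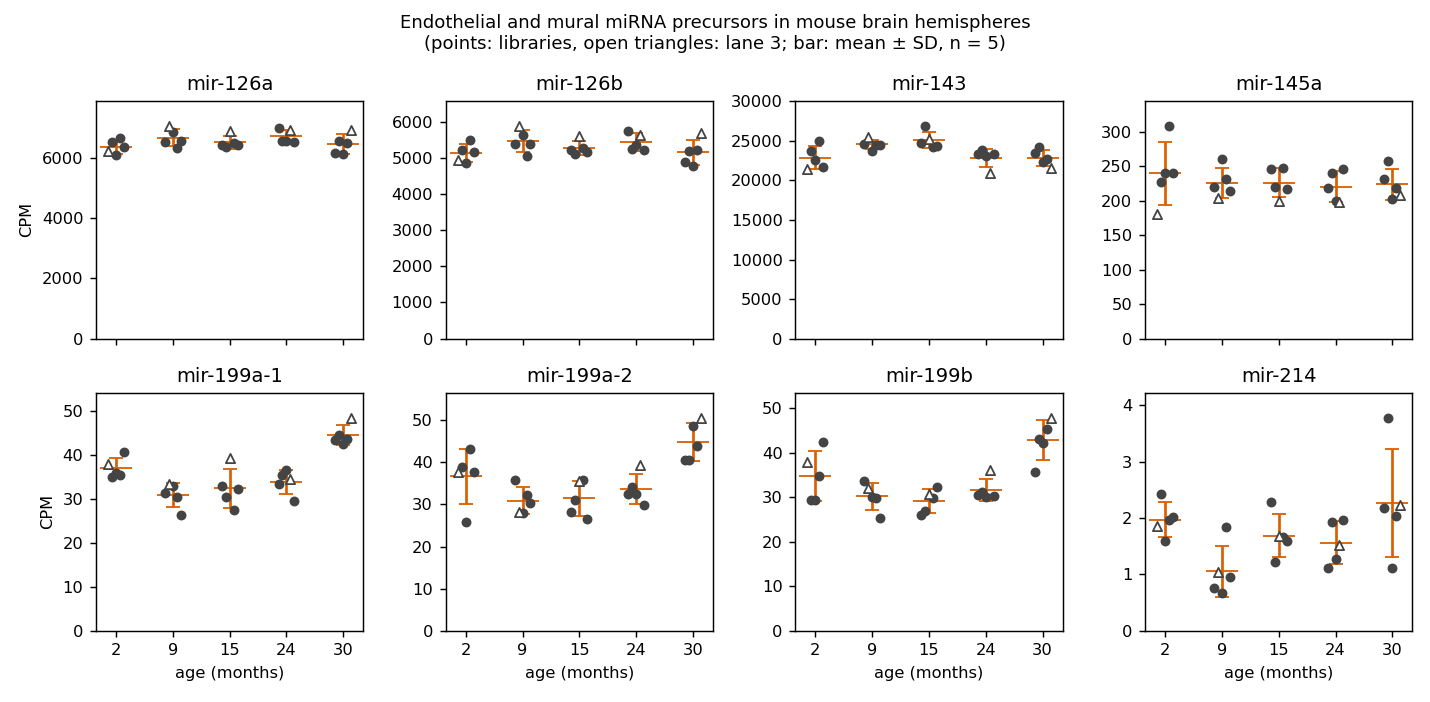
Level of each precursor (CPM, linear axis from 0) in the 25 libraries by age in months; dots are libraries, open triangles the lane 3 libraries, and bars the mean ± SD (n = 5 per age). The miR-199 loci reach their highest means at 30 months, while mir-126a and mir-126b stay within 6091 to 7053 CPM and 4784 to 5869 CPM.

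Against 2 months, the oldest brains had more miR-199 and did not differ detectably in the endothelial and smooth muscle miRNAs. Between 30 and 2 months, mir-199a-1 and mir-199b rose and no member fell: 2 of the 8 passed the test, against 36.9% of all tested precursors (19.1% higher and 17.9% lower). The same count came from DESeq2, and 3 members had an unadjusted p under 0.05. A share of 2 in 8 is no larger than that of the table as a whole. Between 30 and 24 months, all 3 miR-199 loci rose, 3 of the 8 members, against 8.71% of all precursors called (6.12% higher and 2.59% lower). The miR-199 loci have an identical 3p sequence and can share reads, so their calls in both comparisons are not separate findings. No excess of called members over the whole table is read from the share of 3 in 8. The split of calls over the whole table moved with the scaling. Upper-quartile scaling gave 50 higher and 91 lower against 81 and 76 with TMM for 30 against 2 months, and 11 and 19 against 26 and 11 for 30 against 24 months; plain library totals gave 20 and 23 for 30 against 24 months.

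The endothelial miRNAs did not differ detectably between the oldest and the youngest brains. mir-126a had 6155, 6567, 6123, 6503 and 6921 CPM in the 30-month libraries, against 6233, 6528, 6091, 6668 and 6367 CPM in the 2-month libraries. The 2 ages overlapped over most of their range. The log2 fold change was 0.02 ± 0.04 (SE, 95% interval -0.06 to 0.10, adjusted p = 0.748), a value whose sign turned under other scalings and without lane 3 while staying at or under 0.05 in size.

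mir-126b, annotated on the opposite strand of the same place, had 4894, 5176, 4784, 5208 and 5671 CPM at 30 months and 4925, 5205, 4849, 5485 and 5163 CPM at 2 months. Its log2 fold change was 0.01 ± 0.05 (interval -0.09 to 0.11, adjusted p = 0.925), again with a sign that turned with the scaling. The sum of both hairpins changed by a log2 fold change of 0.00 ± 0.04 (interval -0.07 to 0.08, adjusted p = 0.960). Between 30 and 24 months the sum averaged 11491 ± 582 CPM at 30 months and 12114 ± 359 CPM at 24 months (SD, n = 5 each). That difference, a log2 fold change of -0.08 ± 0.04, did not pass the test (adjusted p = 0.222). Over the 5 ages the sum averaged 11475, 12181, 11908, 12114 and 11491 CPM at 2, 9, 15, 24 and 30 months.

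The ratio of mir-126b to mir-126a hardly moved from library to library. mir-126b held between 43.9% and 45.4% of the reads of the pair in all 25 libraries, and its ratio to mir-126a lay between 0.781 and 0.832. Over the 25 libraries the log2 levels of the pair had a Pearson r of 0.98 and a Spearman rho of 0.94 (adjusted p = 9.33e-05 and 2.80e-04, permutation test, adjusted over 28 pairs of members). The r was 0.97 without the 2 libraries farthest from the median of mir-126a, 0.98 on deviations from the age means and 0.97 on deviations from age and lane means. Whether reads were counted by strand was not stated in the sources used here, so the hairpins were also read as 1 measurement.

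The smooth muscle and pericyte miRNAs did not pass between the oldest and youngest brains. mir-143 had 23522, 24185, 22275, 22689 and 21515 CPM at 30 months, against 21476, 23741, 22623, 24933 and 21698 CPM at 2 months (log2 fold change -0.00 ± 0.05, interval -0.10 to 0.09, adjusted p = 0.952). The groups overlapped, with the lowest and the highest of these 10 values both at 2 months. Between 30 and 24 months it differed by -0.00 ± 0.05 (adjusted p = 0.999).

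Against 2 months mir-143 was called higher at 15 months, and not at 9 months (log2 fold change 0.10 ± 0.05, adjusted p = 0.190). It had 24778, 26844, 25276, 24240 and 24383 CPM at 15 months, and all 5 of these values lay above 4 of the 5 at 2 months. The log2 fold change of 0.13 ± 0.05 (1.097-fold) passed narrowly (adjusted p = 0.0477), and mir-143 was the 1 member called at 15 against 2 months, against 18.1% of all precursors (6.82% higher). DESeq2 made 1 call as well, and 3 members had an unadjusted p under 0.05. The call was lost in 6 of 9 other settings (0.08 to 0.16, adjusted p from 0.0212 to 0.403 over all 9) and in 18 of the 25 fits that left out 1 library. It was kept in the fits without 2-month replicate 4, 9-month replicates 2 or 4, 15-month replicate 3, 24-month replicates 4 or 5, or 30-month replicate 4, with values of 0.09 to 0.18 over all 25.

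mir-145a, transcribed with mir-143, had 232, 257, 202, 217.97 and 209 CPM at 30 months, against 181, 228, 241, 308 and 240 CPM at 2 months. The 2-month values enclosed all the 30-month ones. The log2 fold change of -0.10 ± 0.11 (interval -0.32 to 0.12) did not pass (adjusted p = 0.487), nor did that of 0.02 ± 0.11 between 30 and 24 months (adjusted p = 0.968). mir-143 gave between 81.0 and 127 reads for each read of mir-145a, with a median of 104. Within libraries, the log2 ratio of mir-145a to mir-143 differed by -0.08 between 30 and 2 months (exact permutation test, two-sided, p = 0.452, adjusted p = 0.810 over 6 ratios). The pair did not pass as correlated across libraries (r = 0.32, rho = 0.28, adjusted p = 0.298 and 0.393 by permutation over 28 pairs). The r was 0.31 without the 2 extreme libraries, 0.48 on deviations from the age means (adjusted p = 0.122) and 0.35 on deviations from age and lane means.

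The miR-199 loci carried the clearest age pattern among the 8 precursors, and with their identical 3p sequence they are read here as 1 family signal. Their reads divided almost equally: over all libraries mir-199a-1 held 33.99% (5244 reads), mir-199a-2 33.81% (5216) and mir-199b 32.20% (4968). In single libraries the share of mir-199b lay between 28.4% and 35.5%. How the counting placed reads that match several loci is not given in the sources used here, so the sum of the loci is taken as the measurement and the loci are not 3 separate findings.

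**Figure D2:**
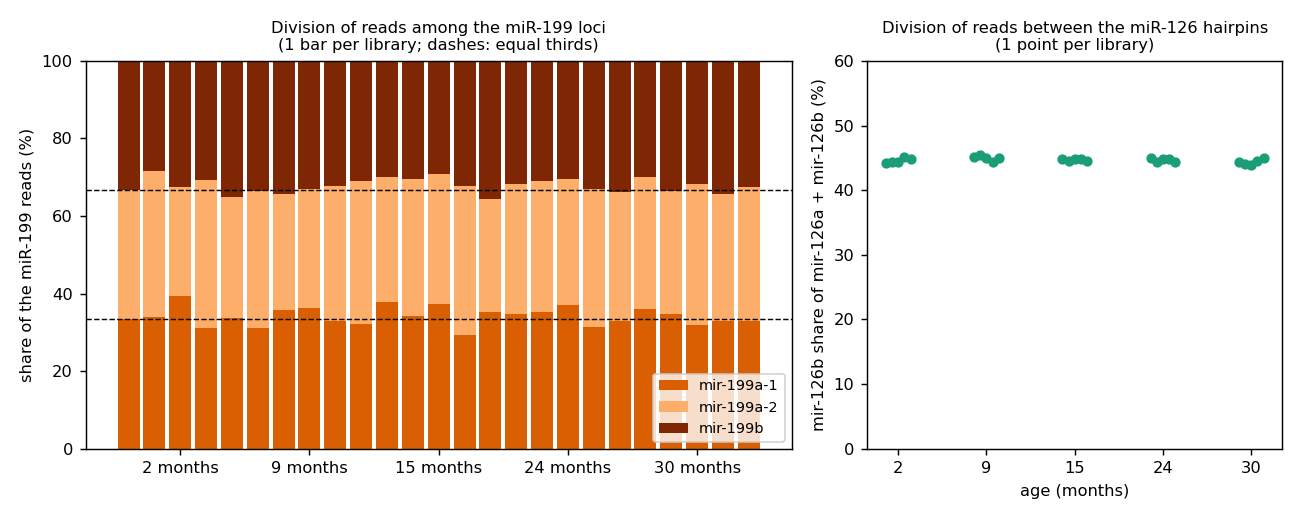
Left, share of the miR-199 reads (%) on each locus in the 25 libraries ordered by age, with dashes at an equal division; right, share of mir-126b in the reads of mir-126a and mir-126b (%) by age in months, 1 point per library. The miR-199 shares lie between 28.2% and 39.4% in every library, and the mir-126b share between 43.9% and 45.4%.

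Summed miR-199 was 121, 129, 131, 130.2 and 143 CPM in the 30-month libraries, against 94.9, 100.03, 98.5, 109 and 91.6 CPM in the 24-month libraries. Every 30-month value lay above every 24-month value, as was so for 3.06% of all tested precursors in that direction. The sum rose 1.32-fold, a log2 fold change of 0.41 ± 0.07 (adjusted p = 9.27e-04). In the 4 lanes that hold both ages the within-lane difference was 0.39 to 0.44, higher at 30 months in 4 of 4. The call held in all 9 other settings (0.34 to 0.41) and in all 25 fits with 1 library left out (0.35 to 0.44).

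In the 2-month libraries the sum was 112, 101, 93.6, 111 and 123 CPM. The 30-month values again stood higher, but 1 of the 2-month values, 123 CPM, lay above the lowest 30-month value. The sum rose 1.21-fold, by a log2 fold change of 0.27 ± 0.07 (adjusted p = 0.00545), with within-lane differences of 0.10 to 0.37, higher at 30 months in 4 of 4 lanes. Upper-quartile scaling ended the call (0.22, adjusted p = 0.0740).

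The lowest levels were at the middle ages. At 9 months the sum was 103, 90.3, 91.1, 94.97 and 82.6 CPM, and at 15 months 87.8, 89.9, 105, 92.3 and 94.4 CPM. Against 2 months it was lower by a log2 fold change of -0.23 ± 0.07 at 9 months (adjusted p = 0.0665), -0.20 ± 0.07 at 15 months (adjusted p = 0.0575) and -0.13 ± 0.07 at 24 months (adjusted p = 0.209), none past the threshold in the fit over all libraries. The 15-month difference passed in 6 of 9 other settings and in 16 of 25 fits with 1 library left out, and the 9-month difference in 2 of 9 and 3 of 25. The means at 2, 9, 15, 24 and 30 months were 108, 92.4, 93.9, 98.8 and 131 CPM. A test for any difference among the 5 ages passed (F = 15.8, adjusted p = 5.57e-05). A straight slope on age did not (0.11 ± 0.04 log2 per 12 months, adjusted p = 0.0518).

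**Figure D3:**
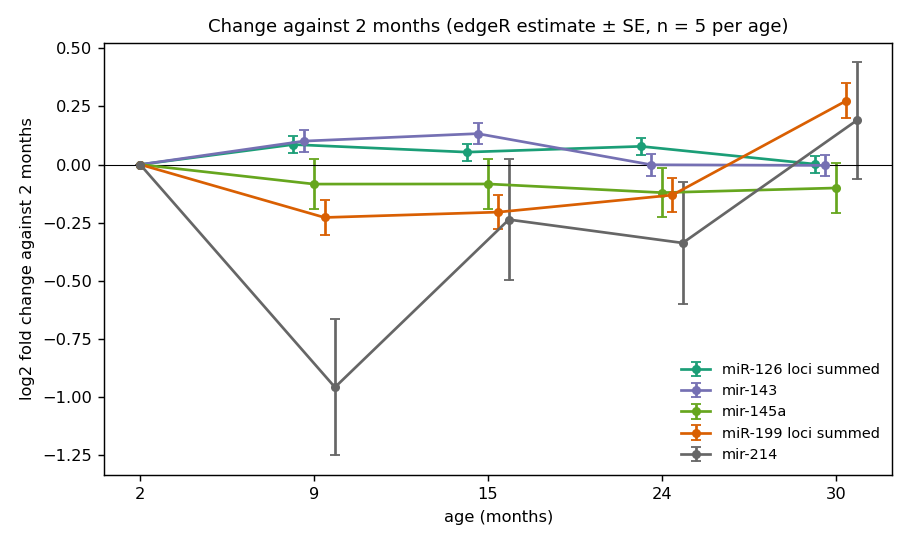
Log2 fold change against 2 months (edgeR estimate ± SE, 5 libraries per age) of the summed miR-126 and miR-199 loci, mir-143, mir-145a and mir-214 by age in months. The miR-199 sum lies at -0.23, -0.20 and -0.13 at 9, 15 and 24 months and at 0.27 at 30 months, while the miR-126 sum stays between 0.00 and 0.09.

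Each locus had its highest mean at 30 months and its next highest at 2 months. mir-199a-1 had 43.3, 44.6, 42.5, 43.6 and 48.3 CPM at 30 months, against 37.9, 35.1, 35.9, 35.4 and 40.6 CPM at 2 months, and the ages did not overlap, as was so for 10.4% of all tested precursors in that direction. Its log2 fold change was 0.27 ± 0.08 against 2 months (adjusted p = 0.0159) and 0.39 ± 0.08 against 24 months (adjusted p = 0.00488), where it had 29.6 to 36.6 CPM, below every 30-month value. Leaving out 2-month replicate 2 ended the call against 2 months (0.21, adjusted p = 0.0687). So did leaving out 2-month replicate 3 (0.22, adjusted p = 0.0542) or 30-month replicate 5 (0.19, adjusted p = 0.0792), and upper-quartile scaling (0.20, adjusted p = 0.140).

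mir-199b had 35.8, 43.2, 42.1, 45.4 and 47.7 CPM at 30 months and 37.9, 29.4, 29.5, 34.8 and 42.4 CPM at 2 months, with overlap. It rose by 0.30 ± 0.10 on the log2 scale against 2 months (adjusted p = 0.0235) and by 0.44 ± 0.10 against 24 months (adjusted p = 0.00946), where it had 30.1 to 36.2 CPM. The 24-month call was lost under upper-quartile scaling (0.37, adjusted p = 0.0581). The 2-month call was lost in 3 of 9 other settings and without 2-month replicates 2 or 3 or without 30-month replicates 2, 3, 4 or 5, with values of 0.20 to 0.27 and adjusted p of 0.0509 to 0.125 in those 6 fits.

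mir-199a-2 had 40.6, 40.6, 48.6, 43.7 and 50.4 CPM at 30 months and 37.8, 38.9, 25.7, 43.2 and 37.7 CPM at 2 months. The ages overlapped. The log2 difference from 2 months of 0.29 ± 0.12 missed the threshold (adjusted p = 0.0542), and it passed with lane as covariate (0.29, adjusted p = 0.0490) and without 2-month replicate 4, 9-month replicate 2, 15-month replicate 3 or 24-month replicates 4 or 5 (0.28 to 0.35). The rise of 0.42 ± 0.12 against 24 months, where it had 29.7 to 39.2 CPM, passed (adjusted p = 0.0260). That call was lost in 3 of 9 other settings and without 24-month replicates 1, 2, 3 or 5 or 30-month replicates 3, 4 or 5 (0.35 to 0.41).

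The 3 loci varied together across libraries, with r of 0.67 for mir-199a-1 and mir-199a-2, 0.82 for mir-199a-1 and mir-199b, and 0.77 for mir-199a-2 and mir-199b. Spearman's rho was 0.65, 0.74 and 0.71 in the same order, and the adjusted p of r was at most 0.00161 (permutation over 28 pairs). Without the 2 libraries farthest from the median of the first of each pair, r was 0.60, 0.75 and 0.73. On deviations from the age means r was 0.10, 0.47 and 0.44, none past the threshold (adjusted p from 0.122 to 0.942). With age and lane means both removed it was -0.11, 0.22 and 0.31, again none past it (adjusted p from 0.415 to 0.909). These pairs can share reads.

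A ratio within a library does not depend on scaling, so the miR-199 sum was also set against mir-126a, the mesenchymal against the endothelial miRNA. The log2 ratio averaged -5.61 ± 0.07 at 30 months and -5.88 ± 0.14 at 2 months (SD, n = 5 each), a difference of 0.27. At 24 months it averaged -6.08 ± 0.09, and the 30-month ratio was higher by 0.47. Neither comparison overlapped, and both gave an exact permutation p of 0.00794, two-sided, which is the smallest that 5 against 5 allows (adjusted p = 0.0476 over 6 ratios). Both differences were positive in 4 of 4 lanes, at 0.20 to 0.38 against 2 months and 0.41 to 0.51 against 24 months. The other 5 ratios, among them mir-199b to mir-199a-1 and mir-126b to mir-126a, did not pass in either comparison (adjusted p from 0.571 to 0.929).

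mir-214, which shares the Dnm3os transcript with mir-199a-2, was counted in few reads, 53 in the 5 libraries at 2 months together, 27 at 9 months, 51 at 15 months, 49 at 24 months and 66 at 30 months. In the 30-month libraries it had 2.18, 3.77, 1.11, 2.03 and 2.22 CPM, against 1.85, 2.43, 1.59, 1.97 and 2.01 CPM in the 2-month libraries. The 30-month values lay on both sides of the 2-month ones. The log2 fold change of 0.19 ± 0.25 (interval -0.33 to 0.71) did not pass (adjusted p = 0.600), and that of 0.53 ± 0.25 against 24 months did not either (adjusted p = 0.221).

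At 9 months mir-214 was at its lowest, with 0.765, 1.04, 0.671, 1.83 and 0.950 CPM from 3 to 7 reads per library. Of these, 4 lay below every 2-month value. It fell by 0.96 ± 0.29 on the log2 scale against 2 months (adjusted p = 0.0487), the 1 member called there, against 7.76% of all precursors (5.88% lower). DESeq2 called 0 members at 9 against 2 months and 4 had an unadjusted p under 0.05. The call was lost in 5 of 7 other settings (-0.99 to -0.93, adjusted p from 0.0452 to 0.137) and in 14 of 25 fits with 1 library left out (-1.18 to -0.82 over all 25). It was kept without 2-month replicate 3, 9-month replicate 4, 15-month replicates 1 or 5, 24-month replicates 1, 2 or 3, or 30-month replicates 1, 2, 3 or 5. Across libraries mir-214 and mir-199a-2 had r = 0.38 and rho = 0.44 (adjusted p = 0.194 and 0.0962 by permutation), and r = 0.36 without the 2 extreme libraries. On deviations from the age means r was -0.04, and shared variation within ages was not detectable at these read numbers.

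Over the whole age course, 5 of the 8 members differed among the 5 ages in some way, against 32.7% of all tested precursors. These were mir-143 (F = 4.11, adjusted p = 0.0372), mir-214 (F = 4.58, adjusted p = 0.0249) and the miR-199 loci (F from 7.30 to 12.3, adjusted p from 2.15e-04 to 0.00337), which count as 1 signal. The mir-143 call was lost in 4 of 7 other settings and the mir-214 call in 2 of 6. In edgeR, 0 members passed for a slope on age, against 35.5% of all precursors, with 3 members at an unadjusted p under 0.05. At 24 against 2 months edgeR and DESeq2 called 0 members, against 22.6% of precursors with edgeR, and 0 members had an unadjusted p under 0.05.

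mir-143 and mir-199b ran opposite to each other across the 25 libraries (r = -0.61, rho = -0.48, adjusted p = 0.00622 and 0.0690 by permutation over 28 pairs). The r was -0.59 without the 2 extreme libraries (adjusted p = 0.0181), -0.49 on deviations from age means (adjusted p = 0.122) and -0.41 on deviations from age and lane means (adjusted p = 0.205). Of the 28 pairs of members, this one and the pairs that can share reads were the 5 past an adjusted p of 0.05 on the values as measured. Other pairs had an adjusted p under 0.05 in only part of the settings. On deviations from age and lane means mir-199a-1 had r = 0.64 with mir-126a and 0.56 with mir-126b. On the values as measured these were -0.06 and -0.13 (adjusted p = 0.860 and 0.791). mir-199a-2 and mir-199b had r = 0.03 and 0.29 with mir-126a on the same deviations. The permutation (adjusted p = 0.00658 and 0.0361 for mir-199a-1) took the 25 deviations as independent. It made no allowance for the removed means, so these p are too small and no call is read from them. mir-143 and mir-199a-1 had r = -0.49 (adjusted p = 0.0620) and passed without the 2 extreme libraries (r = -0.53, adjusted p = 0.0450), with r = 0.16 on age and lane deviations (adjusted p = 0.775).

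Other miRNAs linked to the same cell types were read from lists chosen with earlier results of these data known. Of 14 endothelium-associated precursors, 3 rose and 2 fell between 30 and 2 months, with a median log2 fold change of 0.09, against 0.05 for all tested precursors. That is 5 of 14, close to the 36.9% called over the whole table, and nothing particular to this list is read from it. mir-20a and mir-17, of the proliferation-linked miR-17 cluster, fell by 0.46 ± 0.12 and 0.29 ± 0.08 on the log2 scale (adjusted p = 0.00513 and 0.00690). mir-221 rose by 0.17 ± 0.06 (adjusted p = 0.0265). Between 30 and 24 months 1 of the 14, mir-20a, fell, by 0.49 ± 0.12 (adjusted p = 0.0163), against 8.71% called over the whole table, and the median was 0.01.

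Among 9 mural, smooth-muscle and fibroblast-associated precursors, 8 were tested, mir-503 being below the filter; 3 rose and 1 fell between 30 and 2 months, against 36.9% called over the whole table, with a median of 0.21. mir-10a, from the Hoxb cluster, rose by a log2 fold change of 1.09 ± 0.17 and mir-21a, known from fibrosis and injury, by 0.47 ± 0.07, while mir-322 fell by 0.70 ± 0.10 (adjusted p from 1.34e-05 to 2.21e-05). Between 30 and 24 months edgeR and DESeq2 called 0 of the 8, 1 had an unadjusted p under 0.05, and the median was 0.09 against 0.00 for all precursors. The log2 fold changes of mir-10a and mir-21a over that step were 0.16 ± 0.17 and 0.17 ± 0.07 (adjusted p = 0.646 and 0.126).

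Markers of other cell types also moved with age. The 3 oligodendrocyte precursors, mir-338 and the mir-219a loci, all rose at 30 months against both 2 and 24 months. Their summed level was 2487 to 2913 CPM at 2 months, 2870 to 3405 CPM at 24 months and 3612 to 4554 CPM at 30 months. The 4 microglia precursors, mir-146a, mir-155, mir-142a and mir-223, summed to 562 to 693 CPM at 30 months and 369 to 465 CPM at 2 months. At 24 months they summed to 499 to 697 CPM, overlapping the 30-month range. All but mir-223 rose at 30 against 2 months, 3 of the 4, against 19.1% of all tested precursors called higher. At 30 against 24 months edgeR and DESeq2 called 0 of the 4, and 1 had an unadjusted p under 0.05. Of all tested precursors, 6.12% were called higher over that step.

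The 8 epithelial precursors from the miR-183 and miR-200 clusters varied most. They summed to 367 to 7006 CPM at 2 months, 295 to 3257 CPM at 24 months and 1170 to 8702 CPM at 30 months; the median log2 fold change was 2.05 between 30 and 24 months. In edgeR and DESeq2 0 of the 8 were called, and 3 had an unadjusted p under 0.05 at 30 against 24 months. mir-200c and mir-96 were at 0 in the library where each was lowest. Over the 25 libraries the log2 miR-199 sum had r = 0.61 with the oligodendrocyte sum, 0.56 with the microglia sum, 0.47 with the epithelial sum, 0.41 with the muscle sum and 0.15 or less with the choroid plexus, blood and neuron sums. On deviations from age means these were -0.04, 0.21, 0.13 and 0.09 for the first 4, against -0.48 for neurons. On deviations from age and lane means they were 0.13, 0.21, 0.01 and 0.17, against -0.46 for neurons. Blood had 0.00 on age deviations and 0.25 on age and lane deviations, and choroid plexus -0.17 and -0.33. With the endothelium-associated list r was 0.38, 0.50 on age deviations and -0.06 on age and lane deviations, and with the mural list 0.29, -0.31 and 0.10. In the 30-month libraries the highest miR-199 sum, 143 CPM, stood with 2709 CPM of epithelial miRNAs, and the lowest, 121 CPM, with 7858 CPM. The part of these cell types in the miR-199 result was not tested.

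**Figure D4:**
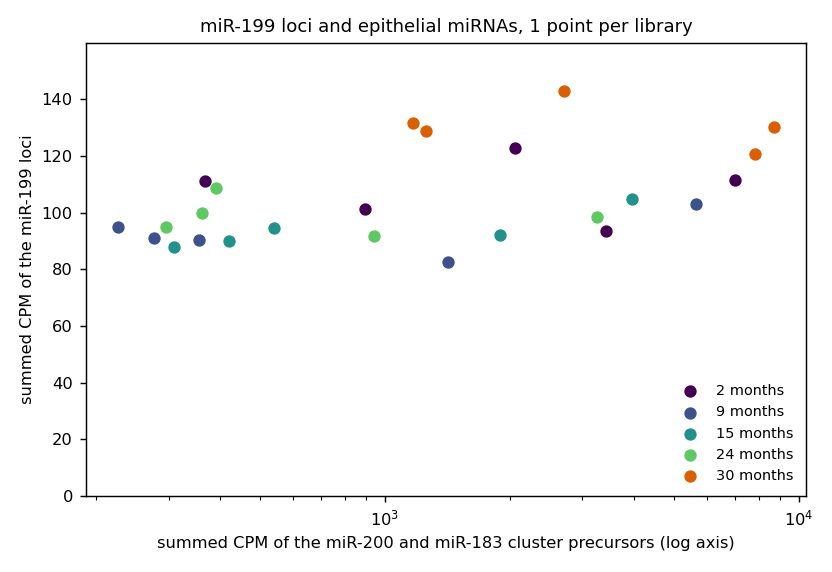
Summed CPM of the miR-199 loci (linear axis from 0) against summed CPM of the 8 epithelial precursors (log axis), 1 point per library, coloured by age. The 5 libraries at 30 months lie at 121 to 143 CPM of miR-199 over an epithelial range of 1170 to 8702 CPM.

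The counts that follow, for 30 against 2 months, stand beside 19.1% of all tested precursors called higher and 17.9% lower. Blood precursors summed to 3437 to 5977 CPM at 30 months and 3248 to 4737 CPM at 2 months, with 1 of 7 rising and 1 falling. The one that rose, mir-142a, is also among the microglia precursors that rose, and mir-223 stands in both lists as well. Of 6 choroid plexus and ciliated-cell precursors 3 rose between 30 and 2 months, their sum being 9158 to 10201 CPM at 30 months and 7717 to 9189 CPM at 2 months. Neuronal mir-124 and mir-9 loci summed to 38621 to 48400 CPM at 30 months and 38294 to 43025 CPM at 2 months, with 0 of 6 called by edgeR or DESeq2 and 0 at an unadjusted p under 0.05. Of 6 tested muscle precursors 2 rose, both of them mir-133a loci, although the median of the 6 was -0.17. Their sums were 239 to 295 CPM at 30 months and 197 to 267 CPM at 2 months for all 6. The part of these cell types in the members' values was not tested.

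Across the 25 libraries, the precursors whose log2 levels ran closest to each member were sought among 318 others with a mean of at least 10 CPM; depth, lane and age are shared by all points. mir-126a ran closest to mir-1251 (r = 0.75), mir-365-2 (0.74) and mir-191 (0.72), and mir-143 to mir-30a (0.69), mir-192 (0.66) and mir-340 (0.64). mir-145a ran closest to mir-99a (0.69), mir-3102 (0.63) and mir-135a-1 (0.62). mir-199b ran closest to mir-187 (0.79), mir-872 (0.79) and the oligodendrocyte precursor mir-219a-2 (0.73), values that were 0.30, 0.38 and 0.20 on deviations from age and lane means. mir-214, at its low read numbers, ran closest to mir-298 (0.59), mir-412 (0.48) and mir-330 (0.47).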

How the data were processed

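For each precursor and each of 25 libraries, the deposited table gives a whole-number count, both arms together. Per the labels' protocols, total RNA went into TruSeq small RNA libraries, which carry no molecular identifiers. SAMtools 1.3.1-9, Trimmomatic 0.36 and bcl2fastq 1.8.4 were used, per the submitters' processing notes. Not given in the sources used here are the build, the aligner, strand use, and how reads with several matches were counted. Ages come from the labels, and lane from the column names of the deposited table.

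Counts were analysed with R 4.3.3 and edgeR 4.0.16: filterByExpr (minimum count 10), TMM scaling, 1 mean per age over all 25 libraries, quasi-likelihood F tests, Benjamini-Hochberg over 425 precursors, and a separate slope per 12 months. The miR-199 and miR-126 loci were also summed and refitted in the full table. TMM factors were computed anew there, so the CPM of a sum differs slightly from the added CPM of its loci. Within-library ratios used a pseudocount of 0.5 and exact permutation. Correlations of log2 CPM used 100000 permutations (scipy 1.17.1), which on deviations made no allowance for the age and lane means removed. Alternatives were RLE, upper-quartile and library-total scaling, DESeq2 1.42.0, no filter, a stricter filter (10 CPM in 5 libraries), only the ages compared, lane as covariate, no lane 3, and each library left out. The procedure was tested on simulated data. All 50 pairs of libraries of 1 age differed beyond sampling noise. Reads are not independent molecules, so precision was taken from the spread between libraries. Members, lists and tests were chosen with earlier results of these data known. All 8 members were named in each comparison. Up to 3 precursors per list were named, those with the smallest p between 30 and 2 months, and for 5 members the 3 precursors with the highest r. Sequences and hairpin coordinates (1-based) are from RefSeq on GRCm38.p6, and host genes from GENCODE M21.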

Additional observations from a re-analysis of the deposited data

Results flagged for a closer look

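Dixon's 95% limit was applied to 75 groups of 5 libraries (members, the miR-199 sum and the ratios at each age). In these, 3 values stood farther from their group than the limit allows, where chance gives about 1 in 20. They belong to 2 libraries, both of lane 3. In 15-month replicate 3 mir-126a was 6905 CPM, with the nearest of the other 4 at 6501 CPM. In 24-month replicate 4 mir-143 was 20911 CPM, with the nearest at 23089 CPM. In the same library mir-199b was 36.2 CPM, with the nearest at 31.1 CPM. The part of the lane in these values was not tested.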

How the results depend on the processing

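The rise of summed miR-199 kept its direction in every setting and every fit with 1 library left out, and lost its call in 1 of these, the 30 against 2 months value under upper-quartile scaling (0.216, adjusted p = 0.0740). Its slope on age passed in 3 of 25 fits with 1 library left out (0.0739 to 0.138 over all 25). Members called higher at 30 against 2 months numbered 2, with 0 under upper-quartile scaling, 1 with only the ages compared, 1 without lane 3, 3 with lane as covariate and 0 to 3 with 1 library left out. At 30 against 24 months they numbered 3, with 1 under upper-quartile scaling. All precursors called there numbered 37, with 20 without the filter, 19 with only the ages compared and 16 to 53 with 1 library left out. Members called at 15 against 2 months numbered 1, with 0 under upper-quartile scaling, library totals, no filter, the stricter filter and only the ages compared, and 2 with lane as covariate. At 9 against 2 months they numbered 1, with 0 under upper-quartile scaling, DESeq2, no filter, the stricter filter and only the ages compared. With 1 library left out both counts ran from 0 to 2. The 5 members with any age difference became 3 without the filter and 3 without lane 3, and 3 to 5 with 1 library left out; the 0 members with a slope became 0 to 2. The stricter filter removed mir-214. At 9 against 2 months the filter on only the ages compared removed it too, so mir-214 was not tested there. Otherwise the cause of these changes was not tested.

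Signs turned for log2 fold changes, slopes and ratios that had not passed, and for 1 correlation that had. At 30 against 2 months mir-126a became -0.0100 (RLE scaling), -0.0498 (upper-quartile), -0.00895 (library totals), -0.00986 (DESeq2), -0.0173 (stricter filter), -0.0144 (only the ages compared) and -0.0465 (no lane 3). In that order mir-126b became -0.0212, -0.0614, -0.0203, -0.0210, -0.0284, -0.0252 and -0.0745. The miR-126 sum became -0.0145 (RLE), -0.0523 (upper-quartile), -0.0140 (library totals), -0.0144 (DESeq2), -0.0201 (only the ages compared) and -0.0609 (no lane 3), and mir-143 became 0.000689 (no filter). The slope of mir-126a became -0.00306 (RLE), -0.00717 (upper-quartile), -0.00571 (stricter filter) and -0.0117 (no lane 3). That of mir-126b became -0.00938, -0.0136, -0.0120 and -0.0227 in that order and -0.00249 with library totals. At 30 against 24 months mir-145a became -0.0414 (upper-quartile), -0.0222 (library totals), -0.00415 (no filter) and -0.0223 (no lane 3). The ratio of mir-199b to mir-199a-1 at 30 against 2 months became -0.0270 within lanes. The r of mir-199a-1 with mir-199a-2, which had passed on the values as measured, became -0.114 on age and lane deviations. That of mir-199a-2 with mir-214, which had not passed, became -0.0431 on age deviations.

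With 1 library left out, values at 30 against 2 months ran from -0.0491 to 0.0216 for mir-126a, -0.0714 to 0.0192 for mir-126b, -0.0596 to 0.00419 for the miR-126 sum, -0.0683 to 0.0172 for mir-143 and -0.0770 to 0.319 for mir-214. Slopes ran from -0.0112 to 0.00828 for mir-126a and -0.0202 to 0.00222 for mir-126b. mir-145a at 30 against 24 months ran from -0.0545 to 0.0482. The ratios ran from -0.00459 to 0.0951 (mir-199b to mir-199a-1), -0.0744 to 0.118 (mir-199a-2 to mir-199a-1) and -0.435 to 0.0497 (mir-214 to mir-199a-2). The ratio of summed miR-199 to mir-126a stayed at 0.227 to 0.312, but 4 against 5 libraries cannot pass after adjustment (adjusted p = 0.0952 in all 10 fits). The slope and the test of any age difference were not run with DESeq2 or with only the ages compared. No paired analysis was possible because replicate numbers were given in accession order and the labels pair no mice across ages. The 3 to 21 reads of mir-214 limit what its values can show.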
